A study of Mus musculus with 24 samples.

Results

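The medial prefrontal cortex (mPFC) of female mice after sham surgery was compared with the anterior cingulate cortex (ACC) of the same group, across all genes. The comparison held 6 of the 24 libraries of the study, 3 from the female sham mPFC and 3 from the female sham ACC, and asked which genes separated the 2 regions without nerve injury. The mice were C57BL/6 females of 3 months, with no transgene named, and tissue was punched from brain slices 2 weeks after the sham operation, which is the control for spared nerve injury (SNI). Each library came from a pool of several animals, so the spread between libraries is that between pools. The other 18 libraries, from SNI females and from sham and SNI males, served only for the checks named below. The column names of the deposited tables gave the sex, the surgery and the number, and the region was that of the table.

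The mPFC and the ACC lie next to each other on the medial wall of the frontal cortex. Neurons of the neocortex are arranged in layers that differ in their targets: neurons of the upper layers project within the cortex, layer 5 projects to other cortical areas or to subcortical centres, and layer 6 projects to the thalamus. Inhibitory interneurons, among them the fast spiking cells that hold parvalbumin, control their firing. Areas of the cortex share many of these cell types. Areas differ in the thickness of the layers, the share of each type and the genes that each type uses.

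Of 33364 genes listed, 16746 had enough counts to be tested, with edgeR's quasi-likelihood F-test on TMM-normalized counts. A gene was called at an adjusted p (Benjamini-Hochberg) under 0.1. Of the genes tested, 4773 were called (28.5%), 2337 higher in the mPFC (14.0%) and 2436 higher in the ACC (14.5%). At an unadjusted p under 0.05 there were 5762. The differences were mostly small, with a median of 1.23-fold among genes higher in the mPFC and 1.26-fold among those higher in the ACC, and more than 2-fold in 123 and 165 genes. In 6334 genes (37.8%) the 3 mPFC libraries did not overlap the 3 ACC libraries. Below, levels are counts relative to the TMM-scaled total of the library (CPM), differences are log2 values of the mPFC minus the ACC with their standard error (SE), and in each group values are given in the order of libraries 1, 2 and 3. In tissue, fewer cells of a type and less RNA per cell cannot be told apart. Genes called higher in the mPFC and in the ACC had median levels of 42.9 and 31.8 CPM, against 16.3 CPM over all tested. Protein coding genes made up 96.1% and 93.8% of them, against 86.4%. The shares of 14.0% and 14.5% over all genes are not matched for level or gene type. They may thus be low for lists of well-expressed coding genes.

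The libraries held 23853845 to 27233224 counts on genes. Library 3 of the mPFC stood apart from the other mPFC libraries: its counts differed from theirs by a chi-square of 12.5 to 12.8 per gene, against 4.05 to 6.81 for the other pairs of a group, and it was the mPFC library nearest to the ACC in 66.6% of the called genes. Mitochondrially encoded genes took 1.91% of its counts, 1.43% and 1.33% in mPFC libraries 1 and 2, and 2.02% to 2.05% in the ACC. Without it 7084 genes were called, 3575 higher in the mPFC and 3509 higher in the ACC. Without mPFC libraries 1 or 2 the number was 2960 and 2268, and without ACC libraries 2 or 3 it was 2343 and 3087. Of the 195 called genes named here, 164 were called whichever library was left out, and the others are marked in the text. Library 1 of the ACC held most of the choroid plexus transcripts, as described below. The genes higher in the mPFC had a median GC content of 54.8% and those higher in the ACC of 43.6%, against 49.4% over all genes tested, and with a smooth trend on GC content removed from each library 2006 and 2055 genes were called. Gene list counts were also taken without mPFC library 3, without ACC library 1 and with the GC trend removed. Where a count moved by over 1.5 times or the balance turned or evened, the counts follow in brackets. The count higher in the mPFC comes first and that higher in the ACC second. Counts of every list are to be read beside the 14.0% and 14.5% of all genes tested. Brackets do not cover the other libraries, which moved more of the 46 lists. A count moved in 24 lists without mPFC library 2, 19 without ACC library 2, 14 without ACC library 3 and 13 without mPFC library 1. It moved in 12 without ACC library 1 and 10 without mPFC library 3. A list without brackets can thus still depend on 1 library.

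**Figure D1:**
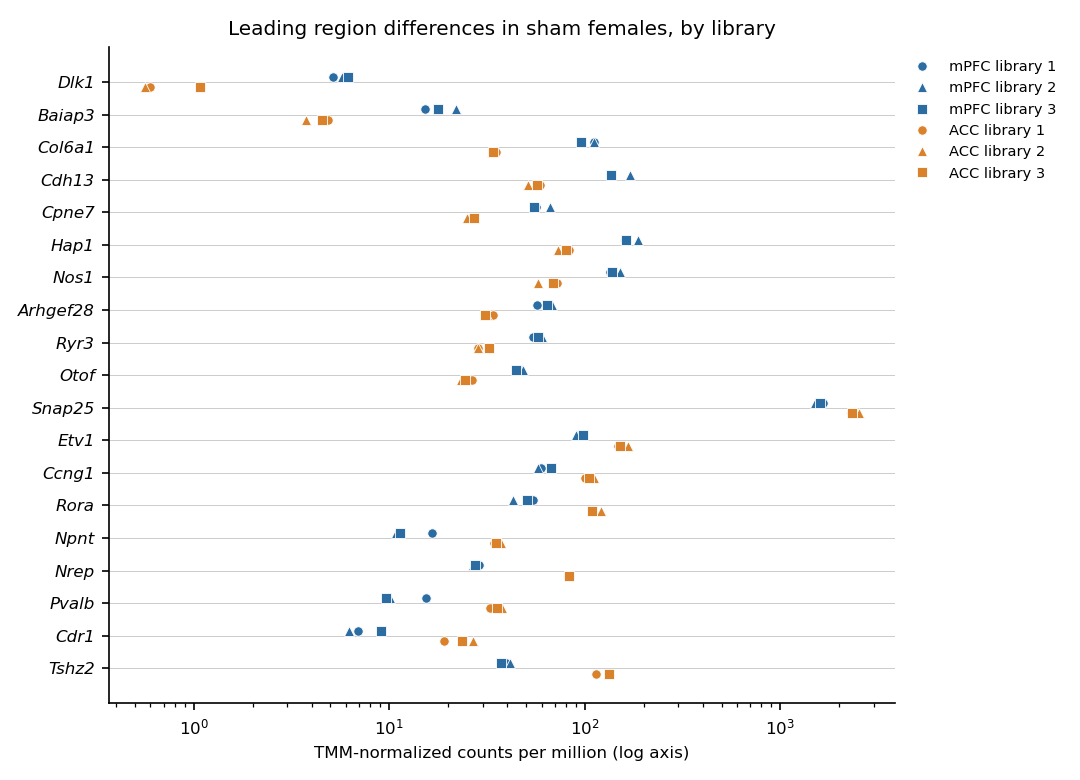
Level of 19 genes in each of the 6 female sham libraries, in TMM-normalized CPM on a log axis, with mPFC libraries in blue and ACC libraries in orange and 1 marker shape per library number. These are 10 genes higher in the mPFC and 9 higher in the ACC, of the 10 in each direction with the smallest adjusted p among genes without overlap of the regions, from Dlk1 with a log2 difference of 2.91 at the top to Tshz2 with -1.68 at the bottom.

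Genes with the smallest adjusted p in each direction, among those whose libraries did not overlap, are described first. Col6a1, a chain of collagen VI (chr10:76708792-76726168, GRCm38), was at 111, 111 and 95.0 CPM in the mPFC and 35.3, 33.3 and 34.0 CPM in the ACC, a log2 difference of 1.63 ± 0.072, adjusted p = 5.8e-07. Cdh13, the GPI-anchored T-cadherin, was at 136, 170.1 and 135 CPM in the mPFC and 58.9, 51.0 and 56.8 CPM in the ACC (1.40 ± 0.095, adjusted p = 2.8e-05). Every mPFC library lay above every ACC library for both. The same held for Cpne7, a calcium-dependent membrane binding copine (1.17 ± 0.081, adjusted p = 2.8e-05), Hap1, the huntingtin-associated protein (1.11 ± 0.077, adjusted p = 2.8e-05), Baiap3, a regulator of dense core vesicle release (2.07 ± 0.15, adjusted p = 3.4e-05), Ryr3, a calcium release channel (0.95 ± 0.073, adjusted p = 4.9e-05), and Arhgef28, an exchange factor of small GTPases (0.97 ± 0.076, adjusted p = 4.9e-05). Nos1, the neuronal nitric oxide synthase, was at 134, 151 and 137 CPM in the mPFC and 72.3, 57.4 and 68.3 CPM in the ACC (1.09 ± 0.086, adjusted p = 4.9e-05). Otof, a calcium sensor of vesicle release that marks upper layer neurons, was at 46.6, 48.1 and 44.5 and 26.3, 23.2 and 24.4 CPM (0.91 ± 0.069, adjusted p = 4.9e-05).

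Higher in the ACC with the smallest adjusted p was Nrep, a small protein linked to nerve regeneration, at 28.6, 26.7 and 27.4 CPM in the mPFC and 81.6, 83.1 and 82.8 CPM in the ACC (-1.58 ± 0.058, adjusted p = 1.6e-07). Tshz2, a zinc finger factor of deep layer near-projecting neurons (chr2:169633013-170071816), followed with 39.6, 41.2 and 37.1 CPM in the mPFC and 113, 133 and 132 CPM in the ACC (-1.68 ± 0.076, adjusted p = 5.8e-07). It overlaps other annotated genes, whose reads may be split from it depending on the counting. Rora, an orphan nuclear receptor, was at 54.3, 42.9 and 50.5 and 108, 121 and 108 CPM (-1.19 ± 0.086, adjusted p = 3.4e-05). Snap25, a SNARE protein of every synapse, was at 1660.2, 1509.6 and 1597 and 2299, 2525 and 2321 CPM (-0.58 ± 0.053, adjusted p = 0.0001). Others of this set were Npnt, the matrix protein nephronectin (-1.46 ± 0.13, adjusted p = 9.8e-05), Pvalb (-1.59 ± 0.14, adjusted p = 9.8e-05), the ETS factor Etv1 (-0.72 ± 0.064, adjusted p = 9.8e-05), the cyclin Ccng1 (-0.78 ± 0.071, adjusted p = 9.8e-05) and Cdr1 (-1.64 ± 0.15, adjusted p = 9.8e-05). Cdr1 overlaps a gene on the other strand, and since the strand mode of the counting is not given in the sources used here, their reads cannot be told apart. In all of these the ACC libraries lay above the mPFC libraries.

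Genes at 1 CPM or more without overlap of the regions, other than unnamed gene models, were also ranked by size. Padi6, of the protein arginine deiminase family, was at 1.80, 2.05 and 1.95 CPM in the mPFC and 0.159, 0.322 and 0.0372 CPM in the ACC (3.47 ± 0.43, adjusted p = 0.00046). Vegfd, a growth factor of lymphatic vessels, was at 4.91, 5.36 and 4.97 and 2.15, 1.17 and 1.15 CPM (1.77 ± 0.22, adjusted p = 0.00055). Hist2h2aa2, at 4.60, 3.01 and 1.20 and 0, 0 and 1.04 CPM, is 1 of several near-identical histone copies and its value (3.02 ± 0.81, adjusted p = 0.025) is uncertain. Ano2, a calcium-gated chloride channel, Mapk15, an atypical MAP kinase, and Stac, an adaptor of calcium channels, differed by 1.99, 1.76 and 1.72. Ano2 was not called without ACC library 2 (1.76, adjusted p = 0.1) and Mapk15 not without mPFC library 2 (1.51, adjusted p = 0.12). On the ACC side Omd and Ogn, both small leucine-rich proteoglycans, differed by -2.29 and -2.06, the lubricant proteoglycan Prg4 by -2.04, the anion exchanger Slc26a7 by -1.93, Urah, an enzyme of urate breakdown, by -2.25, the osteocalcin relative Bglap3 by -1.96 and Sec1 by -1.93. Of these Omd, Ogn, Prg4, Urah and Sec1 overlap another annotated gene. DESeq2 did not call Hist2h2aa2, and gave no adjusted p for Mapk15, Omd, Bglap3, Sec1 or F5. F5, coagulation factor V, and Kcnj13, an inward rectifier of choroid plexus, rested on ACC library 1, where F5 had 11, 15 and 12 counts in mPFC libraries against 470, 15 and 18 in ACC libraries, and Kcnj13 7, 18 and 14 against 244, 23 and 30. Without that library F5 differed by -0.37 (adjusted p = 0.57) and Kcnj13 by -1.01 (adjusted p = 0.12).

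Promoters of 4 called genes, 2 from each direction, are shown as 1 example each from the imprinted, layer 6, parvalbumin and layer 5 lists described here: Dlk1, a Notch ligand relative, and the neurotensin receptor Ntsr1 were higher in the mPFC, and Pvalb and Npnt were higher in the ACC. Each sequence is the 250 bases before the RefSeq start site, 5′ to 3′ on the strand of the gene, from the RefSeq table of GRCm38.p6. Capitals mark matches, on either strand, to AGGTCA (a half-site of nuclear receptors such as Rora), GGGCGG (the GC box), CCAAT and TATAAA, which are found in 14.0%, 32.7%, 33.9% and 12.4% of all 32851 promoters of the table.
Dlk1, chr12:109452573-109452822, plus strand: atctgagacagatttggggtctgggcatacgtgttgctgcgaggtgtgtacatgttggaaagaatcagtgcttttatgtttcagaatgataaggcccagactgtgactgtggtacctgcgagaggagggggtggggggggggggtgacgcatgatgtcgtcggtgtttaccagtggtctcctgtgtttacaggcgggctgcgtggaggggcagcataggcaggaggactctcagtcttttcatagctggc
Ntsr1, chr2:180499726-180499975, plus strand: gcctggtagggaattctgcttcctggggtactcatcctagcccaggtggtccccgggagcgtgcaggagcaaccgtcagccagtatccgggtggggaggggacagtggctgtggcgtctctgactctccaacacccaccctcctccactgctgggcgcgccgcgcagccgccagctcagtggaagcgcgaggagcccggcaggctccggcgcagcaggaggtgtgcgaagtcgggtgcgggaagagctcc
Pvalb, chr15:78206401-78206650, minus strand: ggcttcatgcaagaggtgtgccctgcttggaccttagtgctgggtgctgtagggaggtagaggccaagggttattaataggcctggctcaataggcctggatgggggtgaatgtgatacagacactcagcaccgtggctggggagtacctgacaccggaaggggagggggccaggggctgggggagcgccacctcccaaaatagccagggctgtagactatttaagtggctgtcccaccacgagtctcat
Npnt, chr3:132950292-132950541, minus strand: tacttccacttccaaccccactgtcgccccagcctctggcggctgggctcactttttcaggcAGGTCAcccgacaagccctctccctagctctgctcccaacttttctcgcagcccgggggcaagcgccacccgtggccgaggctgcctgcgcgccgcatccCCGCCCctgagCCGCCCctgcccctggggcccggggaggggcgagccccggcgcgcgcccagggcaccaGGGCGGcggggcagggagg
The Npnt promoter held 1 match to AGGTCA and 3 to GGGCGG, and these letters were not found in the other 3 windows.

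Imprinted genes are expressed from 1 parental allele, and several act in brain growth and in social and metabolic behaviour. Of 31 tested, 8 were called higher in the mPFC and 5 higher in the ACC (11 and 3 with the GC trend removed). These are 25.8% and 16.1%, beside 14.0% and 14.5% of all genes. The median log2 difference was 0.033, against 0.0017 over all genes tested. Dlk1 lies at one end of an imprinted domain (chr12:109452823-109463336) and was at 5.17, 5.73 and 6.13 CPM in the mPFC and 0.598, 0.564 and 1.08 CPM in the ACC, which is 7.50-fold higher in the mPFC (2.91 ± 0.23, adjusted p = 4.9e-05). Dio3, at the other end of the domain (chr12:110279068-110281097), was at 6.63, 6.96 and 4.68 and 1.31, 0.846 and 1.04 CPM, or 5.69-fold higher (2.51 ± 0.22, adjusted p = 9.2e-05). The noncoding and coding genes between them differed less, with 0.065 for Meg3 (adjusted p = 0.52), 0.30 for Rtl1 (adjusted p = 0.14), 0.082 for Mirg (adjusted p = 0.61) and -0.21 ± 0.063, adjusted p = 0.04 for Rian, which with the GC trend removed was at 0.14 (adjusted p = 0.14) and which was not called without any 1 library other than ACC library 1 and mPFC library 3. Nnat, the proteolipid neuronatin, was at 113, 141 and 123 CPM in the mPFC and 51.8, 35.2 and 47.1 CPM in the ACC (1.49 ± 0.13, adjusted p = 7.4e-05), and its host gene Blcap differed by 0.31. Magel2 (1.11 ± 0.31, adjusted p = 0.029, and not called without ACC library 2, with 0.89, adjusted p = 0.12) and Ndn (0.57 ± 0.077, adjusted p = 0.0008), 2 neighbours of the Prader-Willi region, were also higher in the mPFC. On the ACC side Igf2, a growth factor made by the meninges and vessels, was at 30.2, 31.7 and 36.0 and 105, 52.1 and 55.7 CPM (-1.12 ± 0.21, adjusted p = 0.0054), and the difference was -0.72 without ACC library 1.

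Dio3 removes iodine from thyroid hormones and so inactivates them. Of 14 genes of thyroid hormone handling and response, 5 were called higher in the mPFC and 6 higher in the ACC (5 and 3 without ACC library 1 and 5 and 4 with the GC trend removed), against a background of 14.0% and 14.5%. The nuclear receptor Thra (0.68 ± 0.077, adjusted p = 0.0003), the cytosolic hormone-binding protein Crym (0.96 ± 0.10, adjusted p = 0.00017) and the retinoid X receptor Rxrg (1.11 ± 0.20, adjusted p = 0.0044) were higher in the mPFC, beside Dio3. Hr (-0.74 ± 0.16, adjusted p = 0.0099) and Klf9 (-0.38 ± 0.059, adjusted p = 0.0018), which the hormone induces in the brain, were higher in the ACC. Whether hormone action differed between the regions was not tested. Dio2, the activating deiodinase of astrocytes, differed by -0.24, called higher in the ACC, and its call was lost with the GC trend removed (adjusted p = 0.33) and without any 1 library other than mPFC library 3, for example at -0.14 without mPFC library 2. Crym was at 108, 132 and 107 CPM in the mPFC and 60.8, 52.3 and 65.8 CPM in the ACC, without overlap.

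**Figure D2:**
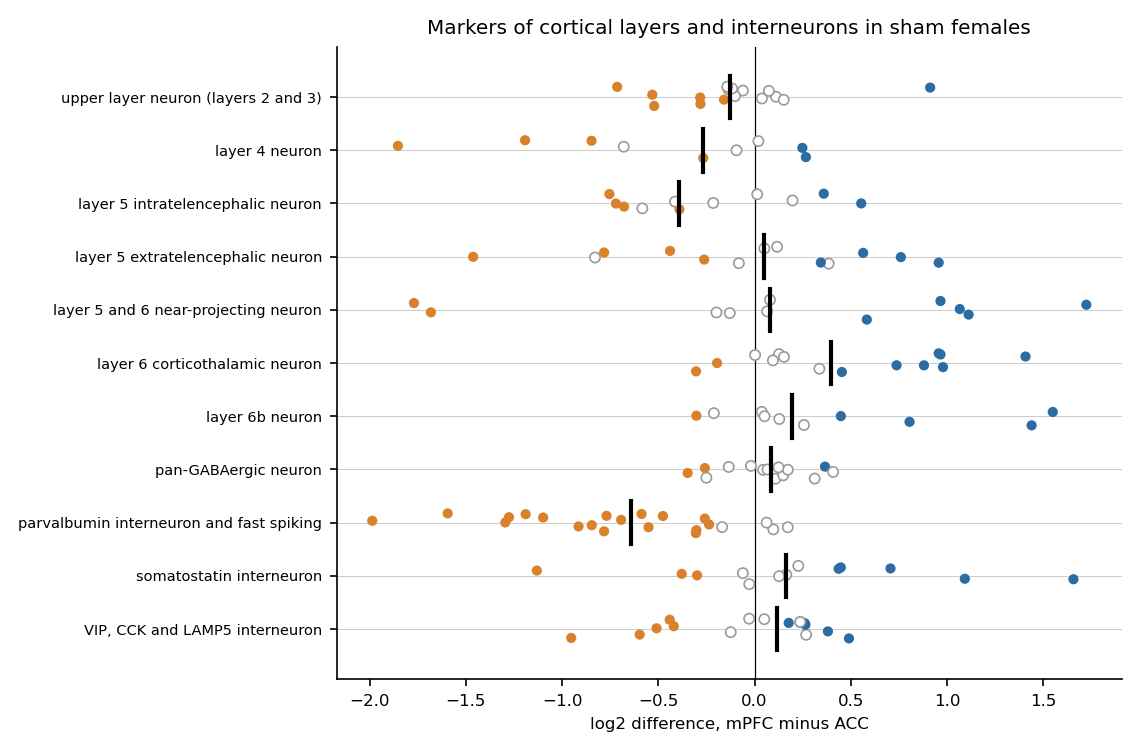
Log2 difference, mPFC minus ACC, of each tested marker of the cortical layers and of interneuron classes in sham females, with filled points for called genes (blue higher in the mPFC, orange higher in the ACC), open points for genes not called, and a bar at the median of each list. The median of the parvalbumin list was -0.64 and that of the layer 6 corticothalamic list 0.39.

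Markers of the layers did not move as one block. The list for layer 6 corticothalamic neurons had the most calls on the mPFC side, with 7 of 14 tested higher in the mPFC and 2 higher in the ACC (median 0.39) (8 and 0 without ACC library 1 and 8 and 0 with the GC trend removed). Ntsr1, the neurotensin receptor that defines these cells, was at 15.3, 20.4 and 13.7 CPM in the mPFC and 6.38, 5.44 and 6.81 CPM in the ACC (1.41 ± 0.15, adjusted p = 0.00019). Foxp2, a forkhead factor, was at 11.2, 14.8 and 14.1 and 7.81, 8.54 and 7.70 CPM (0.74 ± 0.12, adjusted p = 0.0019). Syt6 (0.88 ± 0.12, adjusted p = 0.00072), Rprm (0.98 ± 0.10, adjusted p = 0.00019), Nxph3 (0.97 ± 0.14, adjusted p = 0.0011) and Hs3st4 (0.45 ± 0.083, adjusted p = 0.0044) were higher in the mPFC as well, while Tle4, another marker of the class, was at 0.13 (adjusted p = 0.28). The calls on the ACC side, Foxp1 (-0.19) and Zfpm2 (-0.30), were lost with the GC trend removed. They were also lost without any 1 library other than mPFC library 3 and, for Foxp1, ACC library 3 and, for Zfpm2, mPFC library 2, for example at -0.17 for Foxp1 without ACC library 2 and -0.20 for Zfpm2 without mPFC library 1.

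In layer 6b, the remnant of the embryonic subplate, 4 of 10 markers were higher in the mPFC and 1 in the ACC (5 and 2 with the GC trend removed). Drd1, also in the striatal and dopamine receptor lists, is 1 of the 4. The list summed to 161, 187 and 180 CPM in the mPFC and 178, 178 and 186 CPM in the ACC, which overlap. Ccn2, the matricellular protein that defines the layer, was at 20.0, 29.4 and 23.3 CPM in the mPFC and 17.5, 15.1 and 20.7 CPM in the ACC (0.45 ± 0.14, adjusted p = 0.046), with overlap of the regions, and was not called without mPFC library 2 (0.28, adjusted p = 0.2) or ACC library 2 (0.35, adjusted p = 0.18). Nxph4, a neurexin ligand, was at 1.99, 3.05 and 1.82 and 0.797, 0.644 and 1.08 CPM (1.44 ± 0.29, adjusted p = 0.0064) and Trh, the thyrotropin-releasing hormone precursor, at 0.882, 1.12 and 1.12 and 0.398, 0.322 and 0.335 CPM (1.55 ± 0.31, adjusted p = 0.0067), both without overlap. DESeq2 gave Trh no adjusted p. Cplx3, a complexin of the same cells, was at 0.037 (adjusted p = 0.9).

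The near-projecting list of layers 5 and 6 split, with 5 of 11 higher in the mPFC and 2 higher in the ACC. Beside Tshz2, Tmem215 was higher in the ACC, at 3.37, 1.60 and 1.20 CPM in the mPFC and 6.14, 6.85 and 8.18 CPM in the ACC (-1.77 ± 0.28, adjusted p = 0.002). Rxrg, Nxph3 and Trhr, the receptor of Trh (1.07 ± 0.17, adjusted p = 0.0022), were higher in the mPFC. Among layer 5 extratelencephalic markers 4 of 13 were higher in the mPFC, led by Bhlhe22, a repressor that shapes area identity (0.76 ± 0.076, adjusted p = 0.00015), and Bcl11b (Ctip2), the factor that specifies these cells (0.56 ± 0.072, adjusted p = 0.00059). Another 4 were higher in the ACC, among them Npnt, at 16.4, 10.8 and 11.3 CPM in the mPFC and 34.1, 37.3 and 35.0 CPM in the ACC, and the neurofilament Nefh (-0.78 ± 0.13, adjusted p = 0.0021).

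In the lists for layer 5 intratelencephalic neurons, layer 4 and layers 2 and 3, the calls lay more on the ACC side. These are lists of markers, and no layer was measured in the tissue. Of 11 layer 5 intratelencephalic markers 4 were higher in the ACC and 2 in the mPFC (median -0.39). Etv1 was at 93.7, 90.4 and 98.0 CPM in the mPFC and 148, 166 and 151 CPM in the ACC, the mTOR inhibitor Deptor differed by -0.68 ± 0.074, adjusted p = 0.00022 and the steroid enzyme Hsd11b1 by -0.75 ± 0.12, adjusted p = 0.0019, whereas Fezf2, a selector of subcortical projections, was higher in the mPFC (0.55 ± 0.090, adjusted p = 0.0022). Layer 4 markers counted 4 of 9 higher in the ACC and 2 in the mPFC (median -0.27) (1 and 4 without ACC library 1). Whether either region held a layer 4 was not tested. Rspo1, a Wnt agonist, was at 4.33, 3.16 and 2.40 CPM in the mPFC and 10.3, 11.9 and 13.7 CPM in the ACC (-1.85 ± 0.18, adjusted p = 0.00013). The sodium channel subunit Scnn1a differed by -0.85 ± 0.20, adjusted p = 0.013. Rorb, a nuclear receptor used as a layer 4 marker, was at 32.4, 31.6 and 38.3 and 31.3, 36.7 and 32.8 CPM and was not called (0.020, adjusted p = 0.9). It was called with the GC trend removed (0.21, adjusted p = 0.023).

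In layers 2 and 3, 6 of 16 markers were higher in the ACC and 1, Otof, in the mPFC (median -0.13) (3 and 9 without mPFC library 3 and 2 and 7 with the GC trend removed). The homeodomain factors Cux2 and Cux1 were at 0.11 (adjusted p = 0.23) and -0.28 ± 0.057, adjusted p = 0.0072, and the POU factors Pou3f2 and Pou3f3 at -0.71 ± 0.069, adjusted p = 0.00012 and -0.28 ± 0.064, adjusted p = 0.012. Kitl, the ligand of Kit, was at 29.0, 28.7 and 35.0 CPM in the mPFC and 43.5, 46.6 and 42.7 CPM in the ACC (-0.52 ± 0.083, adjusted p = 0.002). Markers of excitatory neurons as a whole were even, 3 of 12 higher in the mPFC and 3 in the ACC. Slc17a7, the vesicular glutamate transporter of cortical neurons, was higher in the mPFC (0.29 ± 0.063, adjusted p = 0.0097) and Slc17a6, that of thalamic and some cortical neurons, higher in the ACC (-0.94 ± 0.11, adjusted p = 0.0004).

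The parvalbumin and fast spiking list had the largest share of calls among the neuronal lists. Of 22 genes tested 18 were called higher in the ACC and 0 higher in the mPFC, with a median of -0.64. Without mPFC library 3 the calls were 17 and 1, and with the GC trend removed 18 and 1. The summed level of the list was 1763, 1513 and 1487 CPM in the mPFC libraries and 2216, 2534 and 2316 CPM in the ACC libraries, without overlap. Pvalb, the calcium buffer that names the cells (chr15:78191114-78206400), was at 15.3, 10.1 and 9.65 CPM in the mPFC and 32.8, 37.7 and 35.7 CPM in the ACC, 3.02-fold higher in the ACC. Syt2, the fast calcium sensor of their terminals, was at 26.1, 12.02 and 11.5 CPM in the mPFC and 57.8, 75.0 and 64.6 CPM in the ACC, 3.96-fold higher in the ACC (-1.99 ± 0.24, adjusted p = 0.00043). Within the mPFC, library 1 held the highest level of both.

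Other parts of the fast spiking machinery followed. Kcnab3, a beta subunit of Kv1 channels, was at 22.0, 15.1 and 16.2 CPM in the mPFC and 40.3, 46.6 and 42.4 CPM in the ACC (-1.28 ± 0.12, adjusted p = 0.00011). Scn1a, the sodium channel Nav1.1, was at 106, 91.7 and 97.0 and 171, 209.9 and 175 CPM (-0.91 ± 0.086, adjusted p = 0.00011). Its beta subunit Scn4b differed by -1.30 ± 0.19, adjusted p = 0.0015, the vesicle SNARE Vamp1 by -1.10 ± 0.13, adjusted p = 0.00045, the complexin Cplx1 by -0.59 ± 0.10, adjusted p = 0.0024, the Kv1 channel Kcna2 by -0.55 ± 0.067, adjusted p = 0.00044 and the Kv3 channel Kcnc2 by -0.24 ± 0.068, adjusted p = 0.033, the last not called without ACC library 2 (-0.17) or mPFC library 2 (-0.21). Many of these genes are also used by projection neurons and by axons that arrive from other areas. Lhx6, a factor that parvalbumin and somatostatin cells share, was at 0.17 (adjusted p = 0.16), and Kcnc1, the Kv3.1 channel, at -0.17 (adjusted p = 0.19).

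Of 14 genes common to all GABAergic neurons 1 was called higher in the mPFC and 2 higher in the ACC (6 and 4 without mPFC library 3 and 2 and 3 without ACC library 1). These are 7.1% and 14.3%, beside 14.0% and 14.5% of all genes. The median of the list was 0.088. Gad1, a GABA synthesizing enzyme, was at 269.9, 262 and 272 CPM in the mPFC and 327, 353 and 343 CPM in the ACC (-0.35 ± 0.055, adjusted p = 0.0019), while Gad2, the other one, was at -0.13 (adjusted p = 0.27) and the vesicular transporter Slc32a1 at 0.11 (adjusted p = 0.38). In the somatostatin list 5 of 13 were higher in the mPFC and 3 in the ACC. Sst itself was at 209, 203 and 177 and 172, 169 and 185 CPM (0.16, adjusted p = 0.13). Nos1 and Tacr1, the substance P receptor, which mark long-range somatostatin cells, were higher in the mPFC, with Tacr1 at 2.84, 3.24 and 2.82 and 1.04, 0.846 and 0.930 CPM (1.66 ± 0.21, adjusted p = 0.00048). Chodl, another marker of those cells, was at 0.13 (adjusted p = 0.82), and Cbln4, a synaptic organizer of somatostatin cells, was higher in the ACC (-1.13 ± 0.12, adjusted p = 0.00017). In the list of VIP, CCK and LAMP5 cells 5 of 16 were higher in the mPFC and 5 in the ACC (3 and 5 without ACC library 1 and 3 and 5 with the GC trend removed). Without mPFC library 2 or ACC library 2 these counts were 1 and 5. Vip was at 33.5, 33.7 and 37.2 and 44.7, 48.1 and 46.7 CPM (-0.42 ± 0.066, adjusted p = 0.0019), Lamp5 at 127, 98.0 and 85.1 and 187, 219.6 and 195 CPM (-0.95 ± 0.12, adjusted p = 0.00058), both higher in the ACC, and the tachykinin precursor Tac2 was higher in the mPFC (0.49 ± 0.15, adjusted p = 0.038), though not called without ACC library 2 (0.44) or mPFC library 2 (0.39).

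**Figure D3:**
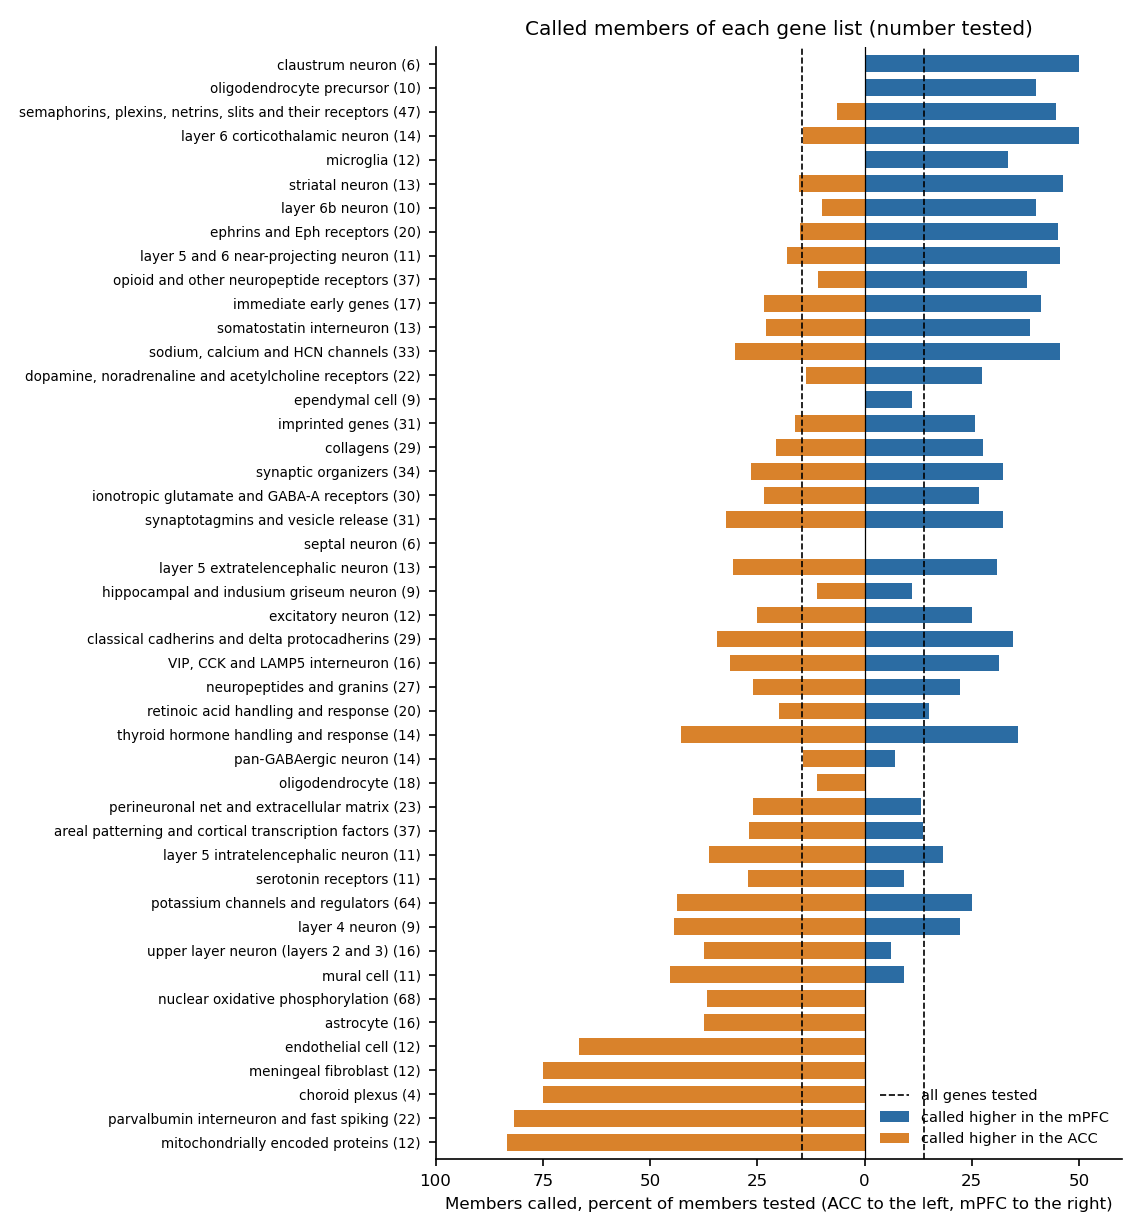
Share of the tested members of each gene list called higher in the mPFC (blue, to the right) and higher in the ACC (orange, to the left), in percent, with the number tested in parentheses and dashed lines at the shares over all genes tested, 14.0% and 14.5%. Parvalbumin and fast spiking genes reached 18 of 22 on the ACC side, and semaphorins and their receptors 21 of 47 on the mPFC side.

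Receptors for neuropeptides, which respond to slow signals, lay more on the mPFC side. Of 37 tested 14 were called higher in the mPFC and 4 higher in the ACC (median 0.23) (15 and 2 without ACC library 1). Apart from Tacr1 and Ntsr1, Mc4r, a melanocortin receptor, was at 2.49, 3.16 and 2.40 CPM in the mPFC and 1.91, 1.65 and 1.38 CPM in the ACC (0.71 ± 0.21, adjusted p = 0.038), Npy2r at 5.29, 6.40 and 5.97 and 2.79, 2.74 and 4.35 CPM (0.83 ± 0.19, adjusted p = 0.011), and the oxytocin receptor Oxtr at 7.40, 8.93 and 8.16 and 5.46, 4.11 and 4.39 CPM (0.81 ± 0.14, adjusted p = 0.0028). Oprm1, the mu opioid receptor, was at 1.65, 2.20 and 2.07 and 0.996, 1.77 and 1.23 CPM and was not called (0.57, adjusted p = 0.14), nor were the kappa and delta receptors Oprk1 (0.11, adjusted p = 0.63) and Oprd1 (0.029, adjusted p = 0.81), while the nociceptin receptor Oprl1 was higher in the mPFC (0.25 ± 0.060, adjusted p = 0.016). Higher in the ACC were Npy5r (-0.55 ± 0.13, adjusted p = 0.014), Gpr83 (-0.31 ± 0.063, adjusted p = 0.0072), Npy1r (-0.20 ± 0.068, adjusted p = 0.064) and Npr3 (-0.26 ± 0.093, adjusted p = 0.068), the last 2 not with the GC trend removed. Several of these calls were lost when any 1 of several libraries was left out. Mc4r was not called without mPFC library 2 (0.57), ACC library 2 (0.72) or ACC library 3 (0.59). Npr3 was not called without mPFC libraries 1 (-0.23) or 2 (-0.29) or ACC libraries 1 (-0.20) or 2 (-0.22). Npy1r was called only with all libraries or without mPFC library 3, with values of -0.21 to -0.17 otherwise. Of the neuropeptides and granins, 6 of 27 were higher in the mPFC and 7 in the ACC (8 and 8 without mPFC library 3 and 8 and 8 with the GC trend removed). Grp, the gastrin-releasing peptide, was at 16.3, 21.4 and 20.7 CPM in the mPFC and 8.21, 7.69 and 9.26 CPM in the ACC (1.21 ± 0.12, adjusted p = 0.00013), and Penk, the enkephalin precursor, at 22.3, 26.1 and 18.2 and 27.7, 28.8 and 29.2 CPM (-0.36 ± 0.11, adjusted p = 0.038, and -0.24 without mPFC library 3, and not called without ACC libraries 2 or 3, with -0.35 and -0.35).

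Among receptors for dopamine, noradrenaline and acetylcholine 6 of 22 were higher in the mPFC and 3 in the ACC (11 and 3 without mPFC library 3 and 4 and 4 with the GC trend removed). Drd1 was at 10.4, 14.9 and 14.6 CPM in the mPFC and 7.69, 8.22 and 6.96 CPM in the ACC (0.80 ± 0.14, adjusted p = 0.003). Drd2 was at 2.68, 5.88 and 4.02 and 0.757, 0.886 and 1.49 CPM (1.99 ± 0.32, adjusted p = 0.0021), without overlap. The nicotinic subunit Chrna4 was higher in the mPFC (0.50 ± 0.10, adjusted p = 0.0078) and the muscarinic receptor Chrm3 higher in the ACC (-0.53 ± 0.074, adjusted p = 0.00094). Of 11 serotonin receptors 3 were higher in the ACC and 1 in the mPFC (2 and 4 without mPFC library 3 and 2 and 3 with the GC trend removed), against 14.5% and 14.0% of all genes. Htr2a, the target of psychedelics, was at 47.9, 41.2 and 47.9 CPM in the mPFC and 69.5, 74.3 and 63.5 CPM in the ACC (-0.60 ± 0.078, adjusted p = 0.00066), Htr7 differed by -0.86 ± 0.13, adjusted p = 0.0015, and Htr1b was higher in the mPFC (0.44 ± 0.12, adjusted p = 0.03, and not called without ACC library 3, with 0.34). Htr1a was not called (0.20, adjusted p = 0.11).

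Subunits of the glutamate and GABA-A receptors changed in both directions, 8 of 30 higher in the mPFC and 7 in the ACC (10 and 13 without mPFC library 3, 6 and 7 without ACC library 1 and 13 and 7 with the GC trend removed). Gria1, an AMPA subunit, was higher in the mPFC (0.42 ± 0.054, adjusted p = 0.00061) and Gria4, prominent in fast interneurons, higher in the ACC (-0.31 ± 0.065, adjusted p = 0.0085). The kainate subunits Grik3 (0.71 ± 0.068, adjusted p = 0.00012), Grik4 (0.47 ± 0.061, adjusted p = 0.00065) and Grik5 (0.42 ± 0.075, adjusted p = 0.0036) were all higher in the mPFC. Of the NMDA subunits, Grin2a was higher in the ACC (-0.37 ± 0.063, adjusted p = 0.0027) and Grin2b was at 0.093 (adjusted p = 0.18). Of the GABA-A subunits, Gabrb2 was higher in the ACC (-0.32 ± 0.078, adjusted p = 0.016).

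Potassium channels and their regulators were called often, 28 of 64 higher in the ACC and 16 higher in the mPFC. Kcng4, a silent subunit that alters Kv2 channels, was at 4.79, 1.19 and 1.74 CPM in the mPFC and 5.62, 8.50 and 7.40 CPM in the ACC (-1.47 ± 0.37, adjusted p = 0.019, and -2.30 without mPFC library 1), whereas its relative Kcng1 was higher in the mPFC (0.89 ± 0.071, adjusted p = 4.9e-05). Kcnn3, a calcium-gated channel (0.66 ± 0.088, adjusted p = 0.00071), was also higher in the mPFC, and Kcnh5 (-0.86 ± 0.12, adjusted p = 0.00084) and Kcnh7 (-0.76 ± 0.084, adjusted p = 0.00023) higher in the ACC. Of the sodium, calcium and HCN channels 15 of 33 were higher in the mPFC and 10 in the ACC (13 and 13 with the GC trend removed). Cacna1e, a calcium channel (0.53 ± 0.055, adjusted p = 0.00016), Cacna1h (0.54 ± 0.082, adjusted p = 0.0016), Hcn3 (0.49 ± 0.084, adjusted p = 0.0028) and Hcn4 (0.54 ± 0.13, adjusted p = 0.015) were higher in the mPFC, and Cacnb4 (-0.57 ± 0.079, adjusted p = 0.00096) in the ACC. Synaptotagmins and release proteins counted 10 and 10 of 31: Syt17 (0.96 ± 0.077, adjusted p = 5.3e-05), Syt10 (1.07 ± 0.20, adjusted p = 0.0053) and Doc2b (0.80 ± 0.090, adjusted p = 0.0003) were higher in the mPFC, opposite to Syt2, Vamp1 and Snap25.

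Molecules that guide axons were called mostly higher in the mPFC. Of 47 semaphorins, plexins, netrins, slits and their receptors, 21 were called higher in the mPFC and 3 higher in the ACC (28 and 6 without mPFC library 3 and 21 and 8 with the GC trend removed), beside 14.0% and 14.5% of all genes, with a median of 0.19. The median was 0.079 with the GC trend removed. Nrp2, a semaphorin receptor, was at 42.7, 53.4 and 51.1 CPM in the mPFC and 33.8, 33.4 and 33.5 CPM in the ACC (0.55 ± 0.082, adjusted p = 0.0014), the slit receptor Robo1 was at 68.6, 73.0 and 70.9 and 53.6, 49.6 and 49.1 CPM (0.48 ± 0.060, adjusted p = 0.00049), and the receptor Plxnc1 at 109, 124 and 123 and 83.3, 82.2 and 82.6 CPM (0.52 ± 0.065, adjusted p = 0.00051). The ligand Sema7a was higher in the ACC (-0.60 ± 0.11, adjusted p = 0.0034), as were Sema3a (-0.48 ± 0.080, adjusted p = 0.0026) and Ntn4 (-0.33 ± 0.11, adjusted p = 0.047), the last not called without mPFC library 1 (-0.32) or ACC libraries 1 (-0.30), 2 (-0.35) or 3 (-0.35). Plxnd1 was at -0.13 (adjusted p = 0.48).

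Ephrins and Eph receptors, which map projections between areas, counted 9 of 20 higher in the mPFC and 3 higher in the ACC (6 and 6 with the GC trend removed). Without mPFC library 2 they counted 3 and 3. Efnb3 was at 97.9, 127 and 102 CPM in the mPFC and 58.1, 54.7 and 66.7 CPM in the ACC (0.87 ± 0.10, adjusted p = 0.0004), Epha6 differed by 0.35 ± 0.094, adjusted p = 0.025, though it was not called without mPFC library 2 (0.28) or ACC library 3 (0.30), and Epha7 (-0.57 ± 0.070, adjusted p = 0.00048), Efna5 (-0.39 ± 0.10, adjusted p = 0.02) and Epha4 (-0.31 ± 0.058, adjusted p = 0.0049) were higher in the ACC. Cadherins and delta protocadherins, which sort cells by adhesion, were called 10 and 10 times of 29. Beside Cdh13, Pcdh8 (0.91 ± 0.081, adjusted p = 9.8e-05) and Cdh4 (0.49 ± 0.062, adjusted p = 0.00058) were higher in the mPFC, and Pcdh7 (-0.86 ± 0.10, adjusted p = 0.0004), Cdh12 (-0.85 ± 0.12, adjusted p = 0.0012), Cdh20 (-0.52 ± 0.081, adjusted p = 0.0019) and Cdh8 (-0.45 ± 0.072, adjusted p = 0.0021) in the ACC.

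Synaptic organizers were likewise split, 11 of 34 higher in the mPFC and 9 in the ACC (8 and 8 without ACC library 1). Lrfn2 (0.56 ± 0.083, adjusted p = 0.0014), C1ql3 (0.59 ± 0.089, adjusted p = 0.0015) and the pentraxins Nptx1 (0.51 ± 0.074, adjusted p = 0.0012) and Nptxr (0.45 ± 0.062, adjusted p = 0.0008) were higher in the mPFC. Cbln2, a cerebellin enriched in frontal cortex, was at 38.2, 31.9 and 31.6 CPM in the mPFC and 53.8, 63.8 and 57.8 CPM in the ACC, higher in the ACC (-0.78 ± 0.088, adjusted p = 0.00027), with Slitrk2 (-0.56 ± 0.10, adjusted p = 0.0046). Of genes of perineuronal nets and matrix 3 of 23 were higher in the mPFC and 6 in the ACC (5 and 7 without mPFC library 3 and 1 and 6 with the GC trend removed). These are 13.0% and 26.1%, beside 14.0% and 14.5% of all genes. Hapln4, a link protein of the nets (-0.64 ± 0.10, adjusted p = 0.0016) and Spp1, or osteopontin (-0.85 ± 0.16, adjusted p = 0.0053), were higher in the ACC, the laminin Lamb1 higher in the mPFC (0.64 ± 0.14, adjusted p = 0.009), and Acan, the aggrecan of the nets, was not called (0.19, adjusted p = 0.34). Collagens were called 8 times on the mPFC side and 6 on the ACC side of 29 (5 and 10 with the GC trend removed), with the transmembrane collagen Col23a1 at 14.1, 17.8 and 15.7 and 6.10, 4.67 and 5.21 CPM (1.57 ± 0.12, adjusted p = 4.9e-05) and Col6a2, the partner chain of Col6a1, at 0.82 ± 0.10, adjusted p = 0.00053.

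Of 37 transcription factors of cortical patterning, 5 were called higher in the mPFC and 10 higher in the ACC (8 and 9 with the GC trend removed). These are 13.5% and 27.0%, beside 14.0% and 14.5% of all genes. Lmo3 (0.46 ± 0.069, adjusted p = 0.0015) joined Bhlhe22 and Foxp2 on the mPFC side, and Tcf4 (-0.45 ± 0.058, adjusted p = 0.00061) joined Tshz2, Rora and Etv1 on the ACC side. Nr2f1, which sets the posterior identity of the cortex, was at 0.17 (adjusted p = 0.053) and with the GC trend removed at -0.012 (adjusted p = 0.9), and its call was lost without any 1 library other than ACC library 1 and mPFC library 3, at 0.14 to 0.18. Retinoic acid genes counted 3 and 4 of 20 (5 and 5 without mPFC library 3 and 3 and 3 without ACC library 1). These are 15% and 20%, near the 14.0% and 14.5% of all genes. The synthesizing enzymes lay on both sides, with Aldh1a3 higher in the mPFC (0.41 ± 0.14, adjusted p = 0.065, and not called without mPFC libraries 1 or 2 or ACC library 2, with 0.44, 0.39 and 0.28) and Aldh1a1 (-1.09 ± 0.17, adjusted p = 0.002) and Aldh1a2 (-0.64 ± 0.17, adjusted p = 0.025), the enzyme of the meninges, higher in the ACC. Immediate early genes, which follow recent activity, were called 7 times higher in the mPFC and 4 times higher in the ACC of 17 (5 and 5 with the GC trend removed). Without mPFC library 2 or ACC library 2 these counts were 6 and 1. Jun (0.55 ± 0.069, adjusted p = 0.00052), Fosb (0.70 ± 0.069, adjusted p = 0.00014) and Egr4 (0.63 ± 0.073, adjusted p = 0.00035) were higher in the mPFC, Arc (-0.34 ± 0.088, adjusted p = 0.021), Egr1 (-0.19 ± 0.064, adjusted p = 0.059) and Egr3 (-0.21 ± 0.071, adjusted p = 0.059) higher in the ACC, and Fos was at 0.14 (adjusted p = 0.44). Arc was at -0.22 without ACC library 1 and was not called in the fit of all 24 libraries, Egr1 was not called without ACC library 2 (-0.12) or mPFC libraries 1 (-0.20) or 2 (-0.17), and Egr3 not without mPFC library 2 (-0.14) or ACC libraries 2 (-0.16) or 3 (-0.22).

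Oxidative phosphorylation genes of the nucleus were called higher in the ACC in 25 of 68 and in the mPFC in 0 (4 and 28 without mPFC library 3, 0 and 15 without ACC library 1 and 1 and 42 with the GC trend removed), with a median of -0.11. Uqcrb (-0.53 ± 0.084, adjusted p = 0.0018), Cox6c (-0.42 ± 0.058, adjusted p = 0.00094) and Ndufs4 (-0.43 ± 0.092, adjusted p = 0.0093) were among them, and Ndufa4 was too (-0.33 ± 0.058, adjusted p = 0.0033), though not with the GC trend removed. Of the mitochondrially encoded proteins 10 of 12 tested were higher in the ACC (median -0.52) (1 and 5 with the GC trend removed). Their summed level was 14476, 13433 and 18883 CPM in the mPFC and 20145, 20359 and 20393 CPM in the ACC, so that mPFC library 3 lay close to the ACC. mt-Nd1 was listed at 0 in every library. The value of mt-Co1 is uncertain because the nuclear genome holds a near-identical copy of part of it. Of the stretches of 31 bases in Gm29216, a pseudogene on chromosome 1 (chr1:24615706-24616197), 97.2% also occur in mt-Co1. Other nuclear copies were not examined, so the values of the other mitochondrial genes may be uncertain too.

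**Figure D4:**
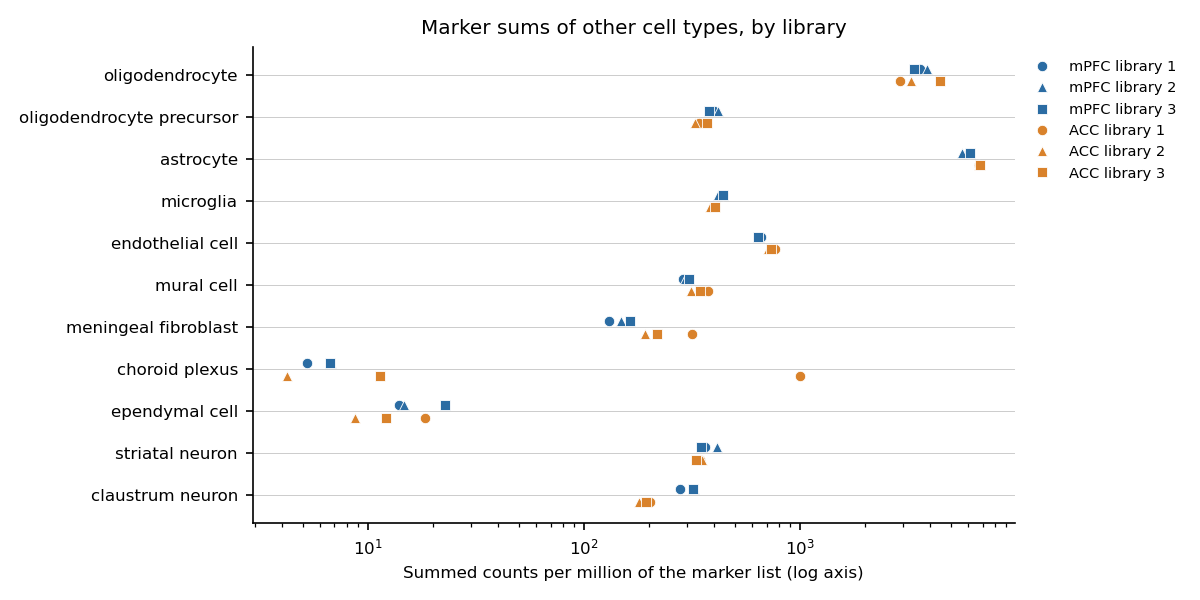
Summed level of the markers of other cell types in each of the 6 libraries, in CPM on a log axis, with mPFC libraries in blue and ACC libraries in orange. ACC library 1 stood at 995 CPM for the choroid plexus list, and the other 5 libraries at 4.23 to 11.4 CPM.

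Markers of cells other than cortical neurons differed too, and their part in the neuronal differences was not tested. Of the oligodendrocyte list, a measure of white matter, 0 of 18 were higher in the mPFC and 2 in the ACC (0 and 0 with the GC trend removed). Its sums were 3373 to 3860.1 CPM in the mPFC and 2890.1 to 4455 CPM in the ACC, which overlap. This balance rested on ACC library 3, which held the highest sum. Without ACC library 3, 7 were higher in the mPFC and 0 in the ACC (median 0.22). Mbp, the myelin basic protein, was at 0.13 (adjusted p = 0.52), and the calls Aspa (-0.43) and Ugt8a (-0.34) were lost with the GC trend removed. Aspa was also lost without mPFC libraries 1 (-0.39) or 2 (-0.39) or ACC library 3 (-0.29), and Ugt8a without any 1 library other than ACC library 1 and mPFC library 3, for example at -0.18 without ACC library 3. Precursors of oligodendrocytes counted 4 of 10 higher in the mPFC (2 and 0 with the GC trend removed), with sums of 380.2 to 417 CPM in the mPFC and 325 to 370.4 CPM in the ACC, among them Gpr17 (0.38 ± 0.061, adjusted p = 0.002), and Pdgfra was not called (0.095, adjusted p = 0.4). Microglia counted 4 of 12 higher in the mPFC (1 and 0 with the GC trend removed). Of these 12 markers 0 were called without mPFC library 1, mPFC library 2, ACC library 2 or ACC library 3. Cx3cr1, the fractalkine receptor, was at 0.17 ± 0.058, adjusted p = 0.064, a call lost without any 1 library other than mPFC library 3 (0.15 to 0.18).

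Astrocytes counted 6 of 16 higher in the ACC and 0 in the mPFC (sums of 5584 to 6124 CPM in the mPFC and 6702 to 6803 CPM in the ACC), with the glutamate transporter Slc1a2 at -0.25 ± 0.054, adjusted p = 0.0088, the connexin Gjb6 at -0.46 ± 0.060, adjusted p = 0.0007 and Aqp4, the water channel of their endfeet, at -0.28 ± 0.088, adjusted p = 0.046, the last not with the GC trend removed, nor without mPFC libraries 1 (-0.20) or 2 (-0.24) or ACC libraries 2 (-0.29) or 3 (-0.27). Vessels followed the same direction. Of endothelial markers 8 of 12 were higher in the ACC (sums of 639.6 to 658 CPM in the mPFC and 709 to 764 CPM in the ACC). That count was 3 without mPFC library 2 and 4 without ACC library 3. Called were the transporter Slco1a4 (-0.49 ± 0.086, adjusted p = 0.0035) and the VEGF receptor Flt1 (-0.24 ± 0.063, adjusted p = 0.023, and not called without mPFC library 2, with -0.19), among others, while Cldn5 was at -0.018 (adjusted p = 0.89). Mural cells counted 5 of 11 higher in the ACC and 1 in the mPFC (1 and 1 without ACC library 1), with Rgs5 at -0.42 ± 0.075, adjusted p = 0.0035 and Pdgfrb at -0.089 (adjusted p = 0.48).

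Meningeal fibroblasts are cells of the brain's covering. Of 12 markers 9 were higher in the ACC and 0 in the mPFC, with a median of -0.56. The list summed to 130.0, 148 and 164 CPM in the mPFC and 316, 191 and 217 CPM in the ACC, without overlap and highest in ACC library 1. Without that library 9 were called and the median was -0.43. Col3a1 was at 2.34, 3.09 and 4.23 CPM in the mPFC and 8.81, 6.44 and 8.22 CPM in the ACC (-1.29 ± 0.20, adjusted p = 0.0016), Col1a1 differed by -0.86 ± 0.17, adjusted p = 0.0058 and Ogn by -2.06 ± 0.31, adjusted p = 0.0016. Dcn, decorin, was at -0.51 ± 0.13, adjusted p = 0.017, a call lost with the GC trend removed. Lum, Igf2, Aldh1a2, Omd and Prg4 moved with them, the first of these by -1.14 ± 0.22, adjusted p = 0.0059.

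Choroid plexus transcripts were highest in ACC library 1, and ACC library 3 held some. Ttr, the transthyretin of the plexus, had counts of 15, 20 and 16 in the mPFC libraries and 21811, 15 and 152 in the ACC libraries. Of 4 plexus markers tested 3 were called higher in the ACC (1 and 1 without ACC library 1). Clic6 and Kl, also of the plexus, were called higher in the ACC (-3.72 and -2.53), but without ACC library 1 Clic6 differed by 0.32 (adjusted p = 0.73) and Kl by 0.14 (adjusted p = 0.67), while Ttr was at -2.24 (adjusted p = 0.039). Without it 3731 genes were called in all, 1869 higher in the mPFC and 1862 higher in the ACC. Ependymal markers counted 1 of 9 higher in the mPFC (2 and 0 without ACC library 1), Cfap44 (0.96 ± 0.23, adjusted p = 0.017), with Foxj1 at 0.19 (adjusted p = 0.47).

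Markers of neighbouring structures were measured as a check of the dissection. In the striatal list 6 of 13 were higher in the mPFC and 2 in the ACC (median 0.44) (6 and 1 without ACC library 1 and 5 and 1 with the GC trend removed), with sums of 349 to 411 CPM in the mPFC and 329 to 349.5 CPM in the ACC, which overlapped. Drd2, Rgs9, a brake on dopamine signalling (1.005 ± 0.12, adjusted p = 0.00046), and Drd1 were higher in the mPFC, Ppp1r1b (DARPP-32) was at 0.44 ± 0.14, adjusted p = 0.044, a call lost with the GC trend removed, without mPFC libraries 1 (0.40) or 2 (0.29) and without ACC libraries 2 (0.43) or 3 (0.37), and Penk was higher in the ACC. In the claustrum list 3 of 6 were higher in the mPFC and 0 in the ACC, with sums of 278 to 324 CPM in the mPFC and 179 to 201 CPM in the ACC. They were Gnb4 (0.65 ± 0.079, adjusted p = 0.00045), Ntng2 (0.42 ± 0.076, adjusted p = 0.0043) and Nnat, and Nr4a2 was not called (0.071, adjusted p = 0.73). Nnat, whose levels are given with the imprinted genes, made up much of the gap between the sums of this list. Of 6 septal markers 0 was called in either direction, with Zic1 at 0.31 (adjusted p = 0.22). Of hippocampal and indusium griseum markers 1 of 9, Wfs1 (0.59 ± 0.077, adjusted p = 0.00064), was higher in the mPFC and 1, C1ql2 (-1.69 ± 0.36, adjusted p = 0.009), higher in the ACC (1 and 2 without mPFC library 3, 1 and 2 without ACC library 1 and 1 and 3 with the GC trend removed), with Prox1 at -0.12 (adjusted p = 0.3).

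**Figure D5:**
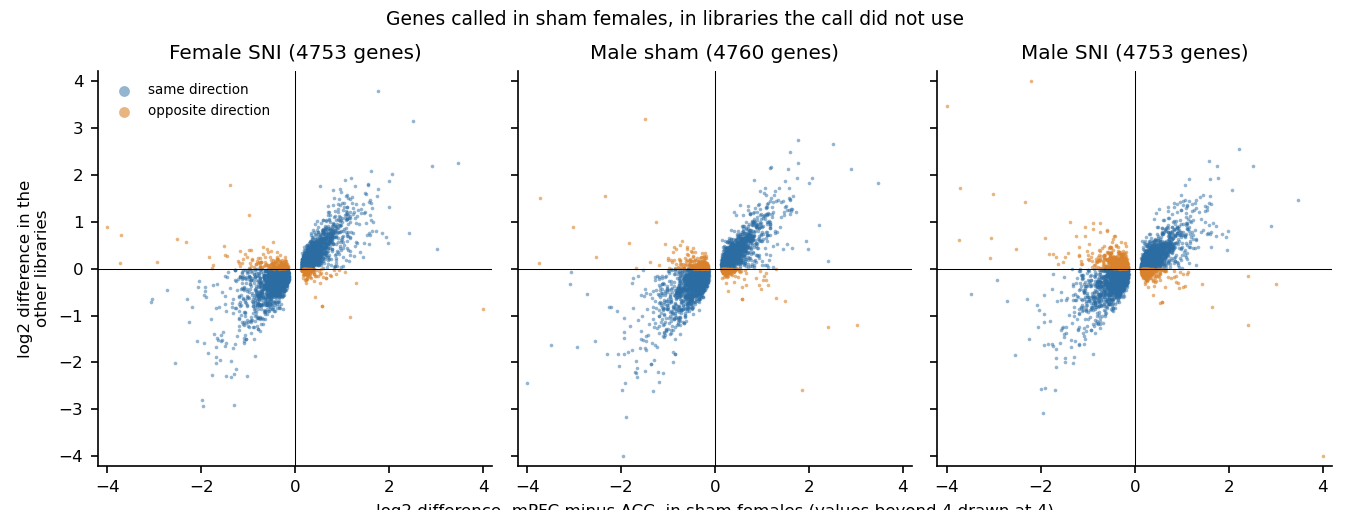
Log2 difference, mPFC minus ACC, of each gene called in sham females (x axis) against the same difference in libraries not used for the call (y axis), in SNI females, sham males and SNI males, with blue points for the same direction and orange points for the opposite one. The same direction was found for 92.9%, 88.8% and 76.8% of the genes.

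The same regions were also sampled in SNI females, sham males and SNI males, in libraries that the calls above did not use. In those groups 27.6%, 14.2% and 21.0% of the genes tested were called between mPFC and ACC. Of the genes called in sham females, 4417 of 4753 (92.9%) had the same direction in SNI females, against 62.7% of the genes not called in sham females, and 2587 were called there too. In sham males the same direction was found for 4228 of 4760 (88.8%, against 61.5%), and 1573 were called. In SNI males it was 3648 of 4753 (76.8%, against 54.0%), with 1622 called in the same and 115 in the opposite direction. In all 4 comparisons 637 genes were called higher in the mPFC and 531 higher in the ACC.

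Among the leading genes, Col6a1 differed by 1.40, 1.27 and 0.78 in SNI females, sham males and SNI males, Dlk1 by 2.19, 2.12 and 0.90, and Dio3 by 3.14, 2.64 and 2.19. On the ACC side Tshz2 differed by -1.88, -1.96 and -1.89, Pvalb by -1.96, -1.70 and -1.59, and Syt2 by -2.81, -2.58 and -2.55. The layer 6 marker Ntsr1 stood at 1.18, 1.11 and 0.79. The meningeal Ogn stood at -0.38, -1.82 and -1.24, and the plexus-related F5 at 0.13, 0.12 and 0.62, so that F5 did not keep its sign. Hist2h2aa2 was at 0.41, -1.20 and -0.32, with the opposite sign in males.

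Whether the region difference itself depended on sex was tested as an interaction over the 12 sham libraries. Of 17458 genes 2 were called (0.0115%), Gm29216 (-0.90 ± 0.085, adjusted p = 0.00046) and mt-Co2 (-1.12 ± 0.16, adjusted p = 0.06), 1272 had an unadjusted p under 0.05, and DESeq2 called 8. Gm29216 was at 558, 600.1 and 612 CPM in the female sham mPFC and 919, 874 and 875 CPM in the female sham ACC, higher in the ACC in females (-0.59) and at 0.31 in males. mt-Co2 was at 0.077 in females (adjusted p = 0.66) and 1.19 in males. Whether it depended on the surgery was tested over the 12 female libraries, where 0 of 17451 genes were called by edgeR (0.0%), with 1932 at an unadjusted p under 0.05, and DESeq2 called 6. That count rested on mPFC library 3 of the sham females: without it edgeR called 2070 genes in the surgery interaction, and 5 in the sex interaction. Without any other single library the counts were 0 to 3 for surgery and 1 to 3 for sex.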

How the data were processed

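RNA-seq libraries of the female sham mPFC and ACC, 3 each, were compared, and the other 18 libraries of the series were used for the checks in other groups. The authors deposited raw counts per Ensembl gene without normalization, in 1 table for each sex and region. Per the methods and the submitters' processing notes, paired reads were trimmed with Trimmomatic 0.36, reads matching Rfam were removed with Bowtie2 2.33, the rest were mapped to GRCm38 with HISAT2 2.1.0, and reads per gene were counted with HTSeq 0.9.1. The annotation release and the strand mode are not given in the sources used here. Symbols, coordinates, exon length and GC content came from GENCODE mouse release 21, which holds all 33364 identifiers, with GC content for 33336.

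Genes were kept by filterByExpr (a count of 10, a total of 15), scaled with TMM and tested with the quasi-likelihood F-test of edgeR 4.0.16 (R 4.3.3, legacy setting, after the authors' edgeR 3.34.0), and called at a Benjamini-Hochberg adjusted p under 0.1. The interactions of region with sex and of region with surgery were fitted over 12 libraries each. Alternatives were DESeq2 1.42.0, RLE size factors, no filter, a minimum of 10 counts per library, the current quasi-likelihood method, the replicate number as a block, each library left out, a trend on GC content or length removed, the summed oligodendrocyte markers as a covariate, and fits of the 12 female or all 24 libraries. The steps were tested on simulated data. The p-values measure the spread between pools. With 23853845 to 27233224 counts per female sham library, 3 counts correspond to 0.110 to 0.126 CPM.

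The gene lists and the rules for naming genes were chosen with earlier results of these data known. The rules took the first gene of each list, the 10 genes with the smallest adjusted p and the 10 with the largest difference in each direction (without overlap, at least 1 CPM, no Gm or Rik symbol), up to 3 called genes per list and direction, and up to 3 per direction in each interaction. Some genes that the rules took are not reported here. The other members named were chosen after their values were seen.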

Additional observations from a re-analysis of the deposited data

Results flagged for a closer look

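The region difference itself differed between the sexes for 2 genes, mt-Co2 and Gm29216, a pseudogene that shares 97.2% of its stretches of 31 bases with mt-Co1. For Gm29216 the region difference of females minus that of males was -0.90 (log2), with -0.59 in females and 0.31 in males. For mt-Co2 it was -1.12, with 0.077 in females and 1.19 in males, and this call was lost when any 1 of 8 of the 12 libraries was left out and with the replicate number as a block.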

How the results depend on the processing

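The counts of genes called between the regions stayed within 1.5 times of the reported ones under DESeq2, RLE size factors, both other filters, the current quasi-likelihood method, the trend removals, the oligodendrocyte covariate and the larger fits. With 1 library left out, the number of genes called between the regions ran from 2268 (without mPFC library 2) to 7084 (without mPFC library 3), of which 1087 to 3575 were higher in the mPFC and 1153 to 3509 higher in the ACC. The replicate numbers gave no sign of pairing the regions: same-numbered mPFC and ACC libraries had correlations of their deviations of -0.0795, -0.0429 and -0.0026 over genes, and each library correlated more with a library of another number. With the replicate number as a block 3890 genes were called between the regions, the sex interaction had 4 calls in place of 2 and the surgery interaction 0. The sex interaction had 8 calls with DESeq2, 275 without a filter on low counts, and 1 to 5 with a library left out. The surgery interaction, at 0, had 6 with DESeq2, 672 without a filter and 0 to 2070 with a library left out, the highest without sham mPFC library 3. The cause was not tested. Of 46 gene lists, a count of calls moved by over 1.5 times in 24 without mPFC library 2, 19 without ACC library 2, 14 without ACC library 3, 13 without mPFC library 1, 12 without ACC library 1 and 10 without mPFC library 3, in 19 with the GC trend removed, in 12 in the fit of all 24 libraries, and in at most 6 under each of the others.

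Of 195 called genes named, 159 were called under every alternative that gave them an adjusted p. Leaving out 1 library ended the call of 31: Aldh1a3, Ano2, Aqp4, Aspa, Ccn2, Clic6, Cx3cr1, Dio2, Egr1, Egr3, Epha6, F5, Flt1, Foxp1, Htr1b, Kcnc2, Kcnj13, Kl, Magel2, Mapk15, Mc4r, Npr3, Npy1r, Nr2f1, Ntn4, Penk, Ppp1r1b, Rian, Tac2, Ugt8a and Zfpm2. Removing the GC trend ended 14 calls (Aqp4, Aspa, Dcn, Dio2, Foxp1, mt-Co1, Ndufa4, Npr3, Npy1r, Nr2f1, Ppp1r1b, Rian, Ugt8a and Zfpm2), the fit of all 24 libraries 8 (Arc, Aspa, Dio2, Egr1, Npr3, Nr2f1, Penk and Ugt8a), the oligodendrocyte covariate 7 (Clic6, Cx3cr1, Dio2, Egr1, F5, Kl and Npy1r), the replicate block 5 (Cx3cr1, Egr1, Kl, Npy1r and Nr2f1), the fit of the 12 female libraries 3 (Aspa, Egr1 and Ugt8a) and no filter 2 (Cx3cr1 and Nr2f1). DESeq2 did not call 4, Cx3cr1, Hist2h2aa2, Npy1r and Ppp1r1b, and gave no adjusted p for 9, Bglap3, Clic6, F5, Kl, Mapk15, Omd, Sec1, Trh and Ttr. Signs changed for 4 called genes: Clic6 (-4.28 to 0.32) and Kl (-3.03 to 0.14) with a library left out, positive without ACC library 1, and Rian (0.14) and Nr2f1 (-0.012) with the GC trend removed. Genes that were not called changed sign near 0. With the GC trend removed Cplx3 was at -0.049, Cux2 at -0.014, Oprd1 at -0.090 and Slc32a1 at -0.098. With 1 library left out, Chodl ran from -0.100 to 0.50, Cldn5 from -0.059 to 0.057, Cplx3 from -0.106 to 0.23, Nr4a2 from -0.050 to 0.15, Oprd1 from -0.018 to 0.079, Plxnd1 from -0.27 to 0.022, Rorb from -0.070 to 0.095 and mt-Co2 from -0.038 to 0.22. Genes under about 1 CPM rest on few counts per library, and 3 libraries per region limit how small a difference could be called.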
